A study of Homo sapiens with 66 samples.

Results

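HKC-8 is a human renal proximal tubular epithelial line. In these cells 1158 sites were called for HIF-2α and not for HIF-1α, with neither the HIF motif nor the AP-1 motif at their centres. They were defined from peak lists as intervals called with the HIF-2α antibody in both replicates of wild-type (WT) cells, merged, that overlapped no HIF-1α peak of either replicate and had neither a core hypoxia response element (HRE; ACGTG or GCGTG, either strand) nor an AP-1 heptamer (TGACTCA or TGAGTCA) within 100 bp of the interval's centre on GRCh37 (hg19). Of 3802 sites called in both WT HIF-2α replicates, 2367 were HIF-2-only in this sense and 1435 overlapped a HIF-1α peak. The WT lists held 4537 and 6749 HIF-2α peaks but 1913 and 1535 HIF-1α peaks. A missing HIF-1α call therefore does not show that HIF-1α was absent. The motif-less sites were 48.9% of the HIF-2-only sites and 30.5% of all HIF-2α sites, and 523 of the 1435 sites shared with HIF-1α (36.4%) also had neither motif. Of the remaining HIF-2-only sites, 810 had an HRE core and no AP-1 heptamer (the HRE class) and 399 had an AP-1 heptamer, 192 of them together with an HRE core (the AP-1 class). The measured values that chose the motif-less sites were the HIF-2α and HIF-1α calls in the 4 WT libraries, so these calls and the absence of both motifs are descriptions and were not tested.

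HIF is a dimer of an oxygen-regulated α subunit and HIF-1β, which is present at all oxygen tensions. In oxygenated cells the α subunits are hydroxylated and degraded through the VHL ubiquitin ligase. In hypoxia they accumulate, pair with HIF-1β and bind the HRE core, and HIF-2α is the isoform most closely linked to erythropoietin and to VHL-defective kidney cancer. AP-1 is a family of Jun and Fos dimers that occupies many distal enhancers.

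The study has 66 samples, 50 of them chromatin immunoprecipitation (ChIP-seq) libraries in 25 groups of 2 and 16 of them input chromatin, which were not analysed here. In the knockout experiment WT HKC-8 cells, a HIF-1α KO clone and a HIF-2α KO clone, each a single clone with CRISPR-Cas9 frameshift mutations, were all held for 16 h in 0.5% oxygen, and the antibody to the deleted isoform has no library in its own clone. The severity and duration experiment used HKC-8 cells with both isoforms, held in 0.5% oxygen over 6 h, 16 h or 48 h, or in 3% oxygen over 6 h. RCC4 cells, which come from a renal carcinoma without functional VHL, were cultured in normoxia (HIF-1β replicates numbered 2 and 3), and HepG2, a liver cancer line, at 0.5% oxygen, also for 16 h. Because each clone stands for its genotype, the deletion and other differences between clones cannot be told apart.

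Peaks per library ranged from 237 to 1793 (severity and duration), from 915 to 8279 (knockouts) and from 911 to 6851 (other lines), and read depth is unknown from the lists. Each peak carries the score of the authors' peak caller, and a site without a peak may lie just under the caller's limit. A site counted as called where it overlapped a peak by at least 1 bp, and the motif-less sites moved by 10 kb overlapped 0% to 4.23% of the time, depending on the library. In HepG2 the replicates labelled HIF-1α and HIF-2α ran in opposite directions, since 6.73% and 28.7% of the peaks labelled HIF-1α and 30.6% and 8.08% of those labelled HIF-2α (replicates 1 and 2) lay within 1 kb of a protein-coding transcription start site (TSS). These 4 are therefore named as labelled. The comparison over other lines is also given without the pair labelled HIF-2α, while counts over 46 libraries include all 4. The study calls replicates independent experiments, and p-values measure the spread between their libraries. All libraries were scored on the same sites, so the p-values do not cover counting error over sites.

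The central windows (100 bp to either side of the centre) of 6 motif-less sites are printed first, to show what a HIF-2α site without either motif looks like. They were taken from the GRCh37 reference for sites named by rule: ASPSCR1, MFSD10 and SH3TC2 lie nearest to the 3 sites called in the most libraries outside the 4 that chose them, RIPOR3 and SLCO4A1 to a pair among the 5 with the best HIF-2α rank in WT cells, and SLC38A2 to a site with no HIF-1β peak in any HKC-8 library. Capitals mark matches to the other motifs searched (described with the motif counts), apart from the HRE-like cores that begin with a pyrimidine. MFSD10 and SLCO4A1 held no such match.
ASPSCR1 (chr17:79961762-79961962, plus strand): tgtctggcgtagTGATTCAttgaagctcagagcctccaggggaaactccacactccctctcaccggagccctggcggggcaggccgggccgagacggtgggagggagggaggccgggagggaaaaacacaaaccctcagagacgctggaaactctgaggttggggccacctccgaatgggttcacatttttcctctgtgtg
MFSD10 (chr4:2938442-2938642, plus strand): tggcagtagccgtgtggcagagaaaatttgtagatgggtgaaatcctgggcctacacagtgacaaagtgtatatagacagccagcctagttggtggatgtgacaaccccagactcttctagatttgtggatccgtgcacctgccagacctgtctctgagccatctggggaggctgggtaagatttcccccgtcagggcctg
SH3TC2 (chr5:148345694-148345894, plus strand): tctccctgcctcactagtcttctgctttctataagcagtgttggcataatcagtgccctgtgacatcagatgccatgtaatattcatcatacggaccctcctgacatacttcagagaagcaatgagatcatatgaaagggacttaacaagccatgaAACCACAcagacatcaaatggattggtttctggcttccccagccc
RIPOR3 (chr20:49294723-49294923, plus strand): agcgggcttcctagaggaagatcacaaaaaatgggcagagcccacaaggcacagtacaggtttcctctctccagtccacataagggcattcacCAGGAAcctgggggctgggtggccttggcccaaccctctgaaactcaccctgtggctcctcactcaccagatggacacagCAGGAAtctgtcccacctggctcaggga
SLCO4A1 (chr20:61202523-61202723, plus strand): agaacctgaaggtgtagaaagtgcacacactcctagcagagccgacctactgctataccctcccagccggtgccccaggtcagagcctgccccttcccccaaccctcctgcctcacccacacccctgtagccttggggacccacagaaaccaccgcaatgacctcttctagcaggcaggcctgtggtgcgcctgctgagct
SLC38A2 (chr12:46888264-46888464, plus strand): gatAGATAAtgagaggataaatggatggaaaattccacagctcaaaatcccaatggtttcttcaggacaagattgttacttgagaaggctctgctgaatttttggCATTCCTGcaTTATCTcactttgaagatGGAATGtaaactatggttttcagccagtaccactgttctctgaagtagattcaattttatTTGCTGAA

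The limit of 100 bp has near neighbours on both sides. At RIC8B the nearest HRE core lay 100 bp from the centre and put the site in the HRE class, whereas at MED13L it lay 101 bp away and the site counted as motif-less. Slightly longer windows are printed with the HRE core in capitals. The RIC8B site ranked at the 82.0 and 78.8 percentiles of the WT HIF-2α lists by score and the MED13L site at the 59.1 and 35.3 percentiles, where 100 is the highest score of a list. GSE1, inside the limit at 100 bp, ranked at 48.2 and 86.5, and SFI1, outside it at 101 bp, at 68.8 and 87.2.
RIC8B (chr12:107161826-107162036, plus strand): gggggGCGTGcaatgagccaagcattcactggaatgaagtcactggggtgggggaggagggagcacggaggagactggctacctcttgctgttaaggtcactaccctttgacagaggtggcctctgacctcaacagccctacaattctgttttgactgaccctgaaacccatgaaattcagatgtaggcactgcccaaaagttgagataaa
MED13L (chr12:116491718-116491928, plus strand): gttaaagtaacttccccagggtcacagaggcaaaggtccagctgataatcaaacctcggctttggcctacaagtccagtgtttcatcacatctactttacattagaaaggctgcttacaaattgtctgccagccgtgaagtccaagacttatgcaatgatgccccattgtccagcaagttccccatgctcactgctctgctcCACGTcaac

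The third set shows what a small family of sites, the best-ranked motif-less site among them, had in common. At 4 motif-less sites the central window was a copy of ST13, the gene of a co-chaperone that binds Hsp70. Capitals mark the longest stretch identical to an ST13 transcript on either strand, 42 to 67 bp in these windows.
ST13P19, near SERTAD4 (chr1:210438937-210439137, plus strand): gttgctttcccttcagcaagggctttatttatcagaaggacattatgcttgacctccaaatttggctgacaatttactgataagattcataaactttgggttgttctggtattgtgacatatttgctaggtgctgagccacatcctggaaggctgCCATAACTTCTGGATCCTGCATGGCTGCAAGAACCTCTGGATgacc
copy near LPIN1 (chr2:12164488-12164688, plus strand): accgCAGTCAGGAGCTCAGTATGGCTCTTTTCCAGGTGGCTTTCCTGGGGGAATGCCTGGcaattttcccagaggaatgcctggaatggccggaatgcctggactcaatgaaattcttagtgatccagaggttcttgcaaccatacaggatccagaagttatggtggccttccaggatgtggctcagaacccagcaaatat
ST13P13, in NT5C2 (chr10:104976235-104976435, plus strand): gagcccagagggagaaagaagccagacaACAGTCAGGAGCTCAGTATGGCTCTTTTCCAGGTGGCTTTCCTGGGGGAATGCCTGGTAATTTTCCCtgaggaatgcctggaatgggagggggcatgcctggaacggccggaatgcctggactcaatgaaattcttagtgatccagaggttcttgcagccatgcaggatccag
ST13P15, in SLC9A9 (chr3:143236046-143236246, plus strand): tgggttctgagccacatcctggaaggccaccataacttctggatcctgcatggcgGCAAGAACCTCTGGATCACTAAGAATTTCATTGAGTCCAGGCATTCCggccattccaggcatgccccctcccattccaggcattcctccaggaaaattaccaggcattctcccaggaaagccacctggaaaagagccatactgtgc

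The motif-less sites spanned the range of WT HIF-2α ranks. Their median percentile rank was 45.1 in WT replicate 1 and 61.1 in replicate 2, beside 44.0 and 59.7 for the HRE class and 41.0 and 57.3 for the AP-1 class. When the HIF-2-only sites were divided into 4 equal bands by mean rank, motif-less sites made up 47.1%, 48.0%, 50.9% and 49.7% from the weakest to the strongest band. The weakest site, 533 kb from the TSS of ZNF337, a zinc finger gene (chr20:26210108-26210763), had scores of 50.5 and 53.2 and no peak in any library outside the 4 that chose it. KALRN, a guanine nucleotide exchange factor (rank 3.25 and 6.15), and RASGRP1, an activator of Ras (3.38 and 7.38), were the next lowest, with a peak in 1 and 2 of these libraries. Since the WT lists chose the sites, these ranks carry no test.

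HIF-1β, the partner of HIF-2α, was present at most of the motif-less sites in WT cells but at a smaller share than in the classes with a motif. A HIF-1β peak overlapped 859 of them (74.2%, 95% Clopper-Pearson interval 71.6% to 76.7%) in replicate 1 and 1020 (88.1%, 86.1% to 89.9%) in replicate 2. The share of all WT HIF-2α sites with HIF-1β was 86.2% and 93.7% in the same libraries. In the HRE class it was 85.1% and 94.1%, and in the AP-1 class 79.9% and 90.7%. Both replicates had HIF-1β at 829 motif-less sites (71.6%), against 84.2% of all HIF-2α sites and 82.7% of the HRE class. At least 1 replicate had it at 1050 (90.7%), so 108 motif-less sites had none. Intervals here and elsewhere cover counting error only.

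The same order held in every HKC-8 HIF-1β library that had HIF-2α. In the severity and duration experiment HIF-1β was called at 0.864% and 2.07% of the motif-less sites after 6 h, 2.42% and 5.53% after 16 h, 3.11% and 0.518% after 48 h and 2.25% and 3.20% in 3% oxygen. The HRE class gave 1.48% and 2.84%, 4.57% and 9.14%, 3.83% and 0.741%, and 3.09% and 4.44% in the same libraries. In HIF-1α KO cells it was called at 44.5% and 63.9% of the motif-less sites, against 50.6% and 67.9% of the HRE class. The motif-less share was the lower in each of these libraries, although replicates of a condition often differed by more than the classes did. Over 12 libraries the difference from the HRE class averaged −3.10 percentage points (range −10.9 to −0.223, lower in 12 of 12), with an exact sign-flip permutation p of 0.000488, the smallest that 12 libraries can give (two-sided, adjusted p 0.0022 over the 9 tests of this kind). The difference from the AP-1 class averaged −2.27 (−5.77 to −0.149, lower in 12 of 12, exact permutation p 0.000488, adjusted p 0.0022). With motifs sought within 50 bp of the centre, the difference from the AP-1 class was −1.24 and did not pass (exact permutation, adjusted p 0.5), and the motif-less share was then the lower in 4 of 12 libraries and the higher in 8.

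The classes were also compared within bands of WT HIF-2α rank and of width. Averaged over the 4 bands of WT HIF-2α rank, the difference from the HRE class was −3.06 percentage points (lower in 12 of 12 libraries, exact permutation, adjusted p 0.0022). Within the weakest band 40.5% of motif-less and 55.4% of HRE-class sites had HIF-1β in both WT replicates, and within the strongest 94.2% and 98.1%. Motif-less sites were wider, with a median of 1209 bp against 1068 bp in the HRE class and 1032 bp in the AP-1 class, and a wide site has more room to overlap a peak. Averaged over 4 bands of width, chosen after the values were seen, the difference was −4.64 percentage points (lower in 12 of 12, exact permutation, adjusted p 0.0022).

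**Figure D1:**
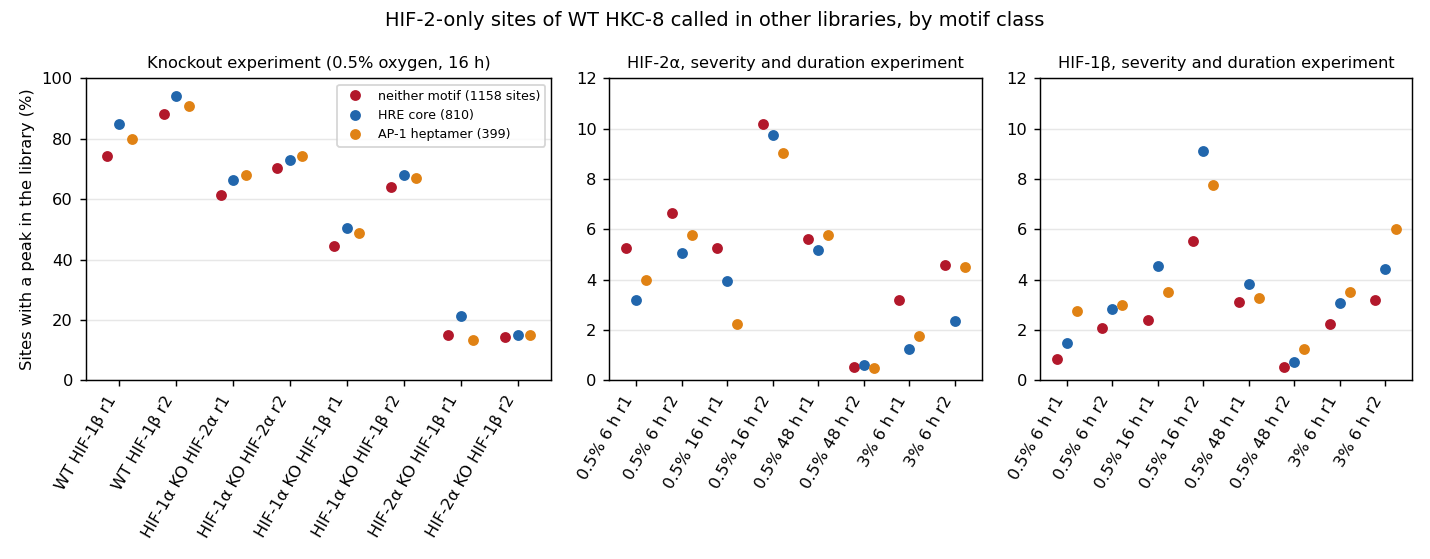
Share of sites with a peak (%) in each HKC-8 library that did not choose the sites, for the 1158 motif-less sites (red), the 810 sites of the HRE class (blue) and the 399 of the AP-1 class (orange). Each point is 1 library (r1 and r2 are replicates) and the vertical scale differs between the knockout panel and the others. Motif-less points lie below the HRE class for HIF-1β in all 12 libraries that had HIF-2α, and above it for HIF-2α in 7 of 8 severity and duration libraries.

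Motif-less sites with fewer HIF-1β calls in WT cells differed in several further readouts. A missing call does not show that HIF-1β was absent. Measured by signal, the paper reports HIF-1β above the level of enhancers without HIF-α at virtually all HIF-2α sites of HKC-8. The 108 with no HIF-1β peak had a median width of 921 bp and a median WT rank of 32.8, the 221 with HIF-1β in 1 replicate 994 bp and 34.4, and the 829 with both 1321 bp and 57.7. HIF-2α was called in both HIF-1α KO replicates at 17.6%, 36.2% and 67.2% of these 3 sets. In the severity and duration experiment the order was another. There HIF-2α was called in at least 1 of 8 libraries at 26.9%, 9.05% and 17.7%, so that the set without a HIF-1β call had the highest share. HIF-1β was called in none of the 108 in the severity and duration libraries. Over all 14 HKC-8 HIF-1β libraries, 89 motif-less sites (7.69%) never had a HIF-1β peak, against 25 (3.09%) of the HRE class.

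Loss of HIF-2α was used to ask whether HIF-1β at these sites depended on HIF-2α, and loss of HIF-1α served as the comparison. In the HIF-2α KO clone, HIF-1β was called at 174 motif-less sites (15.03%) in replicate 1 and 165 (14.2%) in replicate 2. Over all HIF-2-only sites the shares were close to these, 16.9% and 14.7%. Over all WT HIF-2α sites, which include those picked for HIF-1α, they were 37.5% and 31.7%. The motif-less values in WT cells were 74.2% and 88.1%, so the groups did not overlap. The mean was 81.1% ± 9.83 (SD, n = 2) in WT and 14.6% ± 0.55 (n = 2) in HIF-2α KO, which is −66.5 percentage points (exact permutation p 0.333, adjusted p 0.5). With 2 libraries against 2, 0.333 is the smallest p that can be reached. The HIF-1β lists held 6199 and 8279 peaks in WT and 2550 and 2085 in HIF-2α KO. The sites were also chosen by HIF-2α peaks in WT cells of this experiment, a choice that can raise the WT share. Genotype, list length and this choice thus cannot be told apart in this difference. Both HIF-2α KO replicates had HIF-1β at 83 motif-less sites (7.17%), beside 10.99% of the HRE class, 6.52% of the AP-1 class and 8.37% of all HIF-2-only sites.

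In HIF-1α KO cells HIF-1β was called at 515 motif-less sites (44.5%) and 740 (63.9%). All WT HIF-2α sites gave 58.5% and 73.1%, and all HIF-2-only sites 47.3% and 65.8%. The motif-less mean of 54.2% ± 13.7 (SD, n = 2) was 26.9 points below WT (exact permutation p 0.333, adjusted p 0.5). The motif-less values overlapped neither the WT nor the HIF-2α KO values. The HIF-1β lists of HIF-1α KO cells held 3387 and 5786 peaks. Here too genotype, list length and the choice of sites in WT cells cannot be told apart. HIF-2α itself was called there at 711 motif-less sites (61.4%) and 815 (70.4%), against 73.4% and 78.4% of all HIF-2α sites. HIF-1α, which by definition was not called at the sites in WT cells, was found at 14 of them (1.21%) in either HIF-2α KO replicate, against 1.90% of all HIF-2-only sites, 3.21% of the HRE class and 1.25% of the AP-1 class. The share of all WT HIF-2α sites was 19.7%, which includes those picked for HIF-1α. The moved sites overlapped a HIF-1α peak of HIF-2α KO cells in 0.432% and 0.259% of cases.

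Whether the loss of HIF-1β with HIF-2α differed between the classes could not be shown. The motif-less share minus that of the HRE class had a mean of −8.44 ± 3.46 percentage points in WT cells and −3.70 ± 3.90 in HIF-2α KO (SD, n = 2 each). The change of 4.74 had an exact permutation p of 0.667 (adjusted p 0.77). In HIF-2α KO the HRE class was called at 21.5% and 15.2% and the AP-1 class at 13.3% and 15.04%.

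HIF-2α was then looked up in the libraries that had not chosen the sites. At least 1 of the 8 severity and duration HIF-2α libraries had a peak at 196 motif-less sites (16.9%, 14.8% to 19.2%), against 26.5% of all WT HIF-2α sites, 14.9% of the HRE class and 17.04% of the AP-1 class. HIF-1β was called in at least 1 of 8 at 134 (11.6%), against 27.2% of all HIF-2α sites and 15.1% of the HRE class. HIF-1α was called at 7 (0.604%), against 0.803% of all HIF-2-only sites, 0.988% of the HRE class and 1.00% of the AP-1 class. Library by library, HIF-2α was called at 5.27% and 6.65% of the motif-less sites in 0.5% oxygen after 6 h, 5.27% and 10.2% after 16 h, 5.61% and 0.518% after 48 h and 3.20% and 4.58% in 3% oxygen. In the HRE class the values were 3.21% and 5.06%, 3.95% and 9.75%, 5.19% and 0.617%, and 1.23% and 2.35%. The motif-less share was the higher in 7 of these 8 libraries, and the lowest values of both classes came from 48 h replicate 2, whose list had 237 peaks.

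Over the 10 HIF-2α libraries no difference between the classes passed. The mean difference was 0.24 percentage points from the HRE class (higher in 7 of 10, exact sign-flip permutation p 0.758, adjusted p 0.77) and −0.29 from the AP-1 class (lower in 3 of 10, exact permutation p 0.77, adjusted p 0.77). The sign of the first depended on the processing and was −1.48 or −1.95 with sites from a single WT replicate. The severity and duration libraries and the HIF-1α KO libraries went in opposite directions. In the 8 former the difference from the HRE class averaged 1.24 (higher in 7 of 8, exact permutation p 0.0156), and in the pair from HIF-1α KO cells it was −5.02 and −2.46, a mean of −3.74. The gap of −4.98 between the experiments had an exact permutation p of 0.0222 in a test chosen after the values were seen. Genotype, experiment and the length of the lists cannot be told apart in it.

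**Figure D2:**
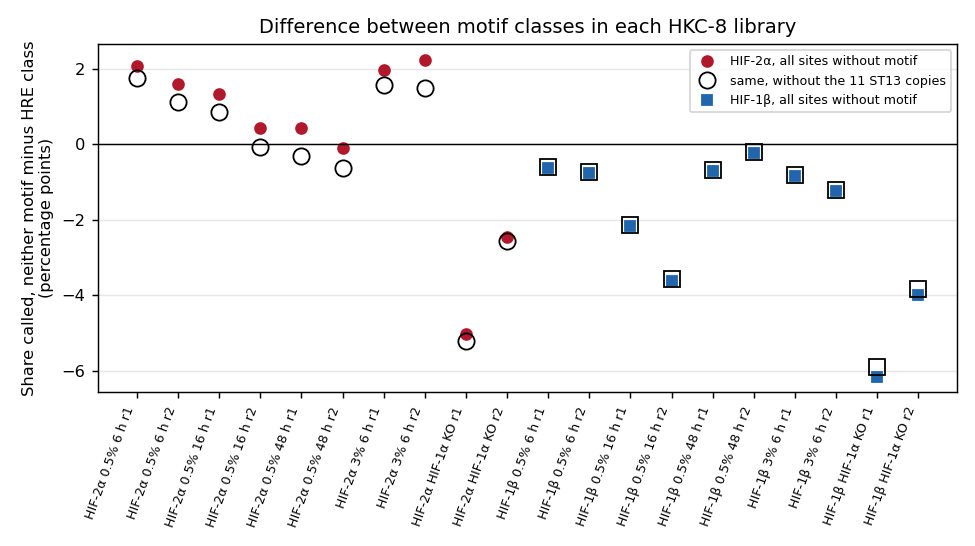
Share of motif-less sites called minus share of the HRE class called (percentage points) in each HKC-8 library, for HIF-2α (red circles) and HIF-1β (blue squares), with open symbols for the same difference without the 11 copies of ST13. Severity and duration libraries are named by oxygen and time. HIF-1β differences lie below 0 throughout, HIF-2α differences lie between −0.099 and 2.23 in the severity and duration experiment and below 0 in HIF-1α KO.

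In the severity and duration experiment, HIF-2α and HIF-1β thus gave class differences of opposite sign. For HIF-1β it was −1.27 percentage points (lower in 8 of 8, exact permutation p 0.00781), and the HIF-2α difference exceeded the HIF-1β difference of the same condition and replicate number by 2.51 on average (8 of 8, exact permutation p 0.00781), both in tests chosen after the values were seen. No label ties a HIF-2α library to the HIF-1β library of the same number. The sharing of HIF-2α calls with HIF-1β can be counted directly. Pooled over the 4 conditions, 74 of 365 motif-less calls (20.3%) had HIF-1β in the same condition, against 76 of 205 (37.1%) in the HRE class and 37 of 114 (32.5%) in the AP-1 class. In HIF-1α KO the shares were 84.8%, 89.4% and 84.0%. Of 66 motif-less sites with HIF-2α in at least 3 severity and duration libraries, 44 had HIF-1β in none, against 10 of 31 in the HRE class and 5 of 16 in the AP-1 class. The pooled counts take a site once per condition. Copies of ST13, described below, added HIF-2α calls but no HIF-1β calls in the severity and duration experiment. These shares over sites are descriptions.

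Where a motif-less site was called for HIF-2α in this experiment it tended to rank high. The median percentile rank of the called sites was 88.3 and 80.4 after 6 h, 72.7 and 55.5 after 16 h, 68.6 and 94.1 after 48 h and 87.7 and 86.6 in 3% oxygen. The ranks of HRE-class sites in the same lists were lower in 7 of 8 cases. Over these libraries and the pair from HIF-1α KO, where the difference was −7.44 and −4.65, the rank difference averaged 8.97 (higher in 7 of 10, exact permutation p 0.146, adjusted p 0.33). The 48 h replicate 2 library, with 6 motif-less calls, alone gave 64.6, and without it the mean was 2.79.

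All 6 of those calls fell on copies of ST13. Processed pseudogenes are reverse-transcribed copies of a messenger RNA inserted elsewhere in the genome, and 17 pseudogenes of ST13 are annotated. Sites were counted as copies, after their sequences had been seen, where they shared at least 100 stretches of 30 bp with ST13 transcripts or had an annotated ST13 pseudogene at their centre. This gave 11 sites among the 1158 motif-less sites (0.95%) and none among the HRE class, the AP-1 class or the sites shared with HIF-1α. They lay at ST13P3, ST13P5, ST13P6, ST13P7, ST13P10, ST13P13, ST13P15, ST13P19 and ST13P21, at an unannotated copy near LPIN1, a phosphatidate phosphatase gene (chr2:12164045-12165131), and at an exon of ST13 itself (chr22:41222722-41223662). Any processed pseudogene, those of ST13 not left out, lay at the centre of 21 motif-less sites (1.81%). It did so at 2 sites of the HRE class (0.247%), 3 of the AP-1 class (0.752%) and 29 of all WT HIF-2α sites (0.763%). No reads were aligned here, so whether copies this alike shared reads was not tested. Which of them carried the signal is uncertain.

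The ST13 copies ranged widely in rank, and the 2 motif-less sites with the best mean WT HIF-2α rank were among them. ST13P19 (chr1:210438319-210439755), 32.9 kb from the TSS of SERTAD4, was the best-ranked motif-less site, with scores of 983 and 1220 in the WT replicates, and ST13P6 on chromosome 8, 80.8 kb from the sialyltransferase gene ST3GAL1, was next with 948 and 1035. At the low end ST13P7 had scores of 93.7 and 130.1 and was called in no other library. HIF-2α was called at ST13P19, ST13P6 and the copy near LPIN1 in 8 of 8 severity and duration libraries, at ST13P13 and ST13P15 in 7, at ST13P21 in 5, at ST13P3 and ST13P5 in 3, at ST13P10 in 2, at the ST13 exon in 1 and at ST13P7 in none.

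HIF-1β at these copies was called in WT and HIF-1α KO cells and in no other HKC-8 library. In 88 pairs of site and library of the severity and duration experiment, HIF-2α was called in 52 (59.1%) and HIF-1β in none. In these libraries the HIF-2α share of the other 1147 motif-less sites ranged from 0% to 9.68%. Their HIF-1β share ranged from 0.523% to 5.58%. In HIF-1α KO, HIF-2α was called in 18 of 22 pairs (81.8%). The other motif-less sites gave 61.2% and 70.3% in these libraries, and all WT HIF-2α sites 73.4% and 78.4%. In RCC4, HIF-2α was called in 6 of 22 (27.3%). The other motif-less sites gave 20.8% and 11.5% there, and all WT HIF-2α sites 32.7% and 20.3%. HIF-1β was called at 3 and 4 of the 11 copies in the WT replicates, against 74.6% and 88.6% of the other motif-less sites. In HIF-1α KO it was called at 2 and 5, against 44.7% and 64.1%, and in HIF-2α KO at none, against 15.2% and 14.4%. HIF-1α was called at no copy in the 10 HKC-8 libraries that did not choose the sites, where the other motif-less sites gave 0% to 1.13%. In HepG2, 4 copies had a peak in the library labelled HIF-1α replicate 1 and 2 in that labelled HIF-2α replicate 2, while the other 4 HepG2 libraries had none. HIF-2α in cells without HIF-2α was not measured, and input chromatin was not analysed here, so whether these peaks depended on HIF-2α was not tested.

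**Figure D3:**
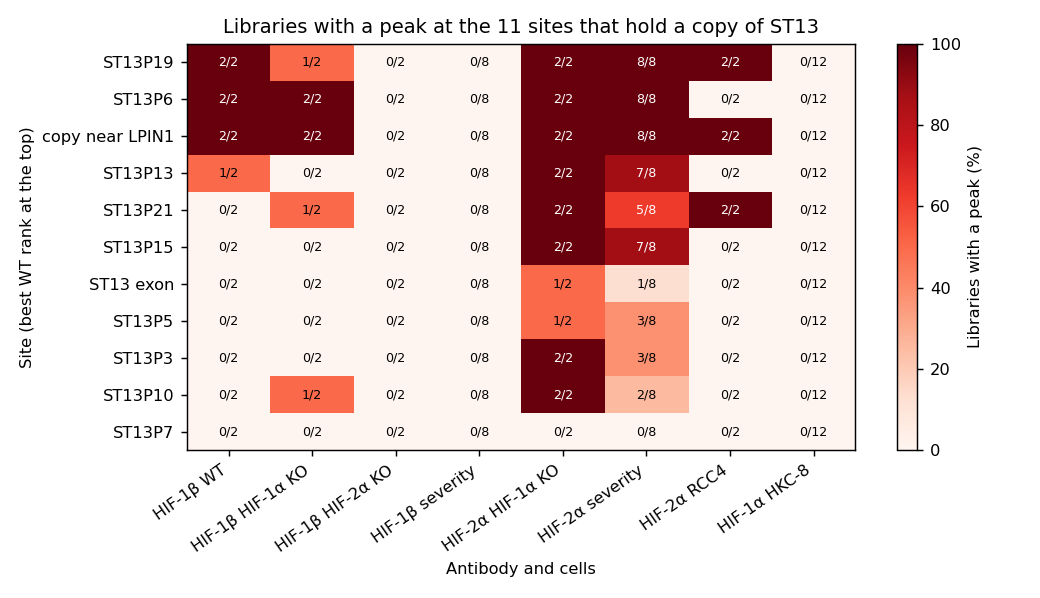
Number of libraries with a peak, out of those in each column, at the 11 motif-less sites that hold a copy of ST13, ordered by WT HIF-2α rank with the best at the top, and the same as a percentage in colour. Columns give antibody and cells. Peaks are frequent with HIF-2α and reach 8 of 8 severity and duration libraries at 3 sites. No HIF-1β peak was called in any of the 8 severity and duration libraries. The HIF-1α column for HKC-8 includes the WT pair, in which the rule allowed no peak.

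A few sites thus moved the comparison with the HRE class. Without the ST13 copies, the HIF-2α difference in the severity and duration experiment was 0.72 percentage points (higher in 5 of 8, exact permutation p 0.0781, adjusted p 0.176), that over all 10 libraries was −0.20, and that of ranks was 0.94. The HIF-1β differences were −2.97 from the HRE class and −2.14 from the AP-1 class, each lower in 12 of 12 libraries (exact permutation, adjusted p 0.0022). Of the 44 sites with HIF-2α in at least 3 severity and duration libraries and no HIF-1β, 8 were ST13 copies.

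Among the 89 sites without HIF-1β in any HKC-8 library, the best ranked was ST13P15 in an intron of SLC9A9, an endosomal sodium-proton exchanger (chr3:143235648-143236644), with ranks of 81.8 and 84.2 and HIF-2α in 9 of the 10 HKC-8 libraries that did not choose it. The next was an intergenic site 122 kb from SLC38A2, a transporter of neutral amino acids (chr12:46887908-46888820). It ranked at 82.7 and 68.0, and its printed window held 6 motif matches, among them a TEAD pair and a GATA pair. HIF-2α was called there in 1 HIF-1α KO replicate and in 1 severity and duration library, whereas all 6 HepG2 libraries had a peak. The third was the ST13 exon.

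In RCC4, HIF-2α was called at 273 motif-less sites (23.6%, 21.2% to 26.1%) in at least 1 replicate, against 34.6% of all WT HIF-2α sites and 23.6% of the HRE class. HIF-1β was called at 20 (1.73%), against 10.7% of all. By library, RCC4 HIF-2α was called at 20.9% and 11.7% of the motif-less sites and 23.0% and 9.88% of the HRE class, and HIF-1β at 1.12% and 0.777% against 2.84% and 2.10%. In HepG2, HIF-1β was called at 63 (5.44%), against 15.3% of all HIF-2α sites, and the libraries labelled HIF-2α at 51 (4.40%), against 14% of all. Over these 8 libraries the motif-less share differed from that of the HRE class by −1.12 percentage points on average (7 of 8 lower, exact permutation p 0.0625, adjusted p 0.188), which did not pass. Without the HepG2 libraries labelled HIF-2α the difference was −1.02 (5 of 6 lower, exact permutation, adjusted p 0.422). Outside this test, RCC4 HIF-1α was called at 10.1% and 1.30% of the motif-less sites (replicates 1 and 2). The HRE class gave 14.7% and 1.60%, and all WT HIF-2α sites 26.0% and 10.7%.

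Most motif-less sites recurred in a few libraries. Of the 46 libraries that did not choose them, a motif-less site had a peak in a median of 6 (quartiles 3 and 7, highest 26), against 6 in the HRE class (3 and 8, highest 31) and 7 over all WT HIF-2α sites (4 and 11). No peak outside the WT HIF-2α lists was found at 51 motif-less sites (4.40%) and 13 of the HRE class (1.60%), beside 7 of the AP-1 class (1.75%) and 73 of all WT HIF-2α sites (1.92%). A site in an intron of ASPSCR1, whose product tethers glucose transporter vesicles (chr17:79960920-79962804), was called in 26 libraries, including 10 of HIF-2α, 12 of HIF-1β and 4 of HIF-1α. A site 1.98 kb from the TSS of the transporter gene MFSD10 (chr4:2937457-2939626) was called in 25, all 6 HepG2 libraries among them. An intron of SH3TC2, a gene of endosomal recycling (chr5:148345035-148346552), was called in 24. IGFN1, a muscle Z-disc protein gene (chr1:201160387-201161955), followed with 22, and RIPK4, a kinase of epidermal differentiation (chr21:43186796-43188651, 0.475 kb from the TSS), with 21.

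At each of these 5 most recurrent sites an HRE core lay outside the central window but inside the merged interval. The nearest was 164 bp from the centre at ASPSCR1, 291 bp at MFSD10, 135 bp at SH3TC2, 114 bp at IGFN1 and 164 bp at RIPK4, and the intervals held 8, 6, 3, 2 and 7 HRE cores. Best ranked apart from ST13 copies were an intron of RIPOR3 (chr20:49294064-49295582, scores 591 and 1763) with 5 HRE cores in the interval, a site 197 kb from CFAP20DC (chr3:59230811-59233879, 644 and 918) with 2, and a site 71.2 kb from SLCO4A1, an organic anion transporter gene (chr20:61199439-61205807, 500.4 and 1155), with 13 in 6369 bp. The RIPOR3 site was called with HIF-1β in both HIF-2α KO replicates and the other pair in 1.

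Motifs outside the central window were then counted over all motif-less sites. An HRE core lay 101 to 500 bp from the centre at 742 motif-less sites (64.1%, 61.2% to 66.8%), against 54.8% of the same windows moved by 2 kb. For the AP-1 heptamer it was 326 (28.2%, 25.6% to 30.8%) against 13.7%. Over the whole interval 70.5% had an HRE core, against 67.7% of intervals moved by 10 kb, and 35.1% an AP-1 heptamer, against 20.3%. The other classes had similar shares with an HRE core at 101 to 500 bp, 62.7% in the HRE class and 63.9% in the AP-1 class. For the AP-1 heptamer at this distance they had 28.0% and 21.6%. By distance, the density of HRE cores at motif-less sites was 1.97 per kb at 101 to 200 bp, 1.77, 1.53 and 1.39 in the next 3 bins of 100 bp, and 1.27 to 1.35 beyond 500 bp. AP-1 heptamers went from 0.648 per kb at 101 to 200 bp to 0.18 to 0.218 beyond 500 bp.

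**Figure D4:**
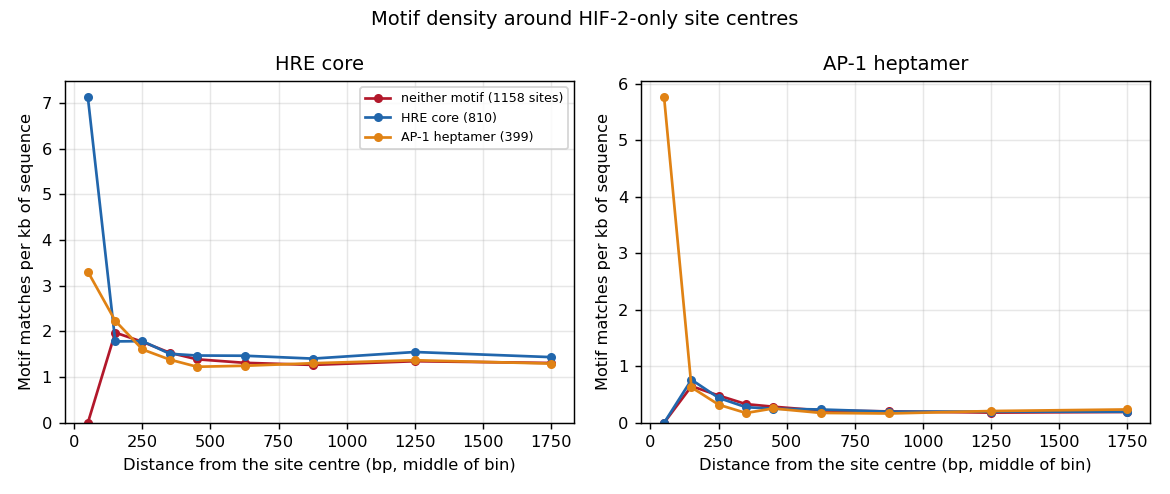
Matches per kb of sequence against distance from the site centre (bp, middle of each bin) for the HRE core (left) and the AP-1 heptamer (right) in the 3 classes of HIF-2-only sites. The first bin is fixed by how the classes were defined. From 101 bp outwards the motif-less line starts at 1.97 per kb for the HRE core and 0.648 for the AP-1 heptamer, falls with distance and lies close to the other classes.

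Peak centres differ between libraries, so motifs were also counted around the centres of other lists. At motif-less sites the centre of the overlapping HIF-1β peak in WT cells lay a median of 73 and 65 bp from the site centre, and 21.5% and 16.96% of the windows around it held an HRE core, against 21.5% and 21.0% of windows moved by 2 kb. Around HIF-2α peaks of HIF-1α KO cells it was 21.9% and 19.02%, against 20.1% and 22.2%. Between 59.2% and 65.9% of these centres lay within 100 bp of the original centre, where the definition had removed HRE cores, so the values are lowered by construction. At least 1 of the HIF-1α KO HIF-2α peaks had an HRE core near its centre at 27.5% of the motif-less sites it overlapped.

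The share with HIF-1β was higher at sites with an HRE core farther out. At the 742 sites with one at 101 to 500 bp, both WT HIF-1β replicates had a peak in 77.2%, at the 416 without one within 500 bp in 61.5%, and at the 265 with neither motif anywhere in the interval in 55.1%. The median width of these sets was 1324, 1036 and 955 bp and their median WT rank 54.9, 46.3 and 42.7, so HIF-1β, width and rank moved together, and their parts in this were not tested. In HIF-2α KO, HIF-1β was called at 17.3% and 14.7%, 11.1% and 13.5%, and 8.30% and 12.1% of the 3 sets.

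Motifs of other factors were counted in the central windows for 17 further motifs on both strands, beside the same windows moved by 2 kb. The TEAD motif (GGAATG), bound by the partners of YAP and TAZ, was in 333 windows (28.8%, 26.2% to 31.5%) against 10.1% of moved windows. It was also frequent in the HRE class (25.7%), the AP-1 class (23.8%) and all WT HIF-2α sites (24.1%). The ETS motif (CCGGAA or CAGGAA), which can share bases with the TEAD motif, was in 31.3% against 20.9%. RUNX (TGTGGTT) was in 6.99% against 3.50%, and the E-box CAGCTG in 15.03% against 8.46%. Heptamers that differ from AP-1 in the central base (TGAATCA or TGATTCA) were in 6.48% against 3.54%, and HRE-like cores that begin with a pyrimidine (CCGTG or TCGTG) in 24.6% against 17.5%. The cyclic AMP response element (TGACGTCA) was in 7 windows (0.604%) against 0.043%.

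Renal and other motifs were counted in the same windows. HNF1 (GTTAATNAT) was in 4 windows (0.345%, against 0.734% of moved windows) and HNF4 (CAAAGTCCA) in 5 (0.432%, against 0.302%). The C/EBP motif (TTGCNNAA) was in 12.8% (10.9% to 14.8%) against 9.24%, the motif of the GATA factors (AGATAA) in 16.2% (14.2% to 18.5%) against 13.7%, the SP/KLF box (GGGCGG) in 5.09% (3.90% to 6.52%) against 3.84% and the antioxidant response element (TGACNNNGC), which can overlap an AP-1 heptamer, in 8.38% against 7.08%. FOX (TGTTTAC or TATTTAC), TCF/LEF (ATCAAAG), NF-κB (GGGANTTCC) and the CTCF motif were in 7.25%, 2.85%, 0.518% and 0.518% of windows, against 6.87%, 3.32%, 0.648% and 0.259%. Each of these shares lay within a few points of the HRE class, and no difference between classes was tested.

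**Figure D5:**
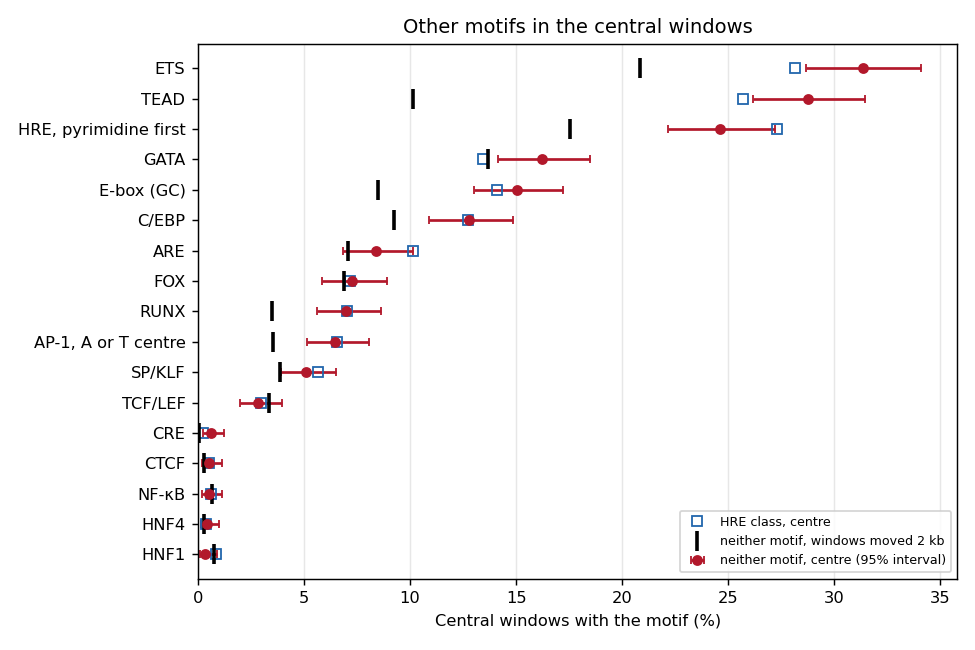
Percentage of the central windows with each motif at the 1158 motif-less sites (red, bars are 95% Clopper-Pearson intervals over sites), at the same sites moved by 2 kb (black ticks) and in the HRE class (blue squares). The red interval lies to the right of the tick for TEAD, ETS, E-box, RUNX and the pyrimidine-first core among others, and the blue squares lie close to the red points for most motifs.

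Motif-less sites were also compared by whether they held the TEAD motif. HIF-1β was called in both WT replicates at 63.1% of the 333 and 75.0% of the 825 without the motif, and HIF-2α in at least 1 severity and duration library at 24.0% and 14.1%. Median width was 1071 and 1282 bp for those with and without it. The central windows of 10 of the 11 ST13 copies held 2 to 5 TEAD matches, and ST13P19 none. These shares over sites carry no test.

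Most motif-less sites were far from promoters. Centres lay within 1 kb of a protein-coding TSS at 46 sites (3.97%, 2.92% to 5.26%), against 6.13% of all WT HIF-2α sites, 4.32% of the HRE class and 2.26% of the AP-1 class. The median distance to a TSS was 35.8 kb, and 280 sites (24.2%) were over 100 kb away. Centres were intergenic at 618 sites (53.4%), in introns at 503 (43.4%), in untranslated regions at 22 and in other exons at 15. Intervals over 2 kb wide made up 13.4%, against 8.27% of the HRE class and 3.76% of the AP-1 class. The median GC content of the central window was 45.8%, against 49.3% in the HRE class, and 17.7% of windows held no CpG, which every HRE core contains.

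The nearest protein-coding genes were spread over 939 names, 772 of them with a single motif-less site. NRXN3, a synaptic adhesion gene, had 6 sites over 1337 kb. CITED2, which competes with HIF-α for the coactivator CBP, had 5 over 474 kb and PGRMC2, a haem-binding membrane protein, 5 over 288 kb. ATP2B1, the plasma membrane calcium pump, had 4 over 59.2 kb. The nearest gene describes position and does not show regulation.

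Few motif-less sites lay nearest to classical HIF targets. Of 62 listed target genes, 11 were nearest to 12 sites (1.04%), against 1.60% of the HRE class and 2.21% of all HIF-2α sites. Among them were ITPR1 with 2 sites and, with 1 each, ADM (adrenomedullin), BHLHE40 and DDIT4 (regulators of transcription and of mTOR), EGLN3 (a HIF prolyl hydroxylase), ENO1 and HK2 (glycolysis) and INSIG2 (sterol sensing). Of 41 listed targets of YAP, TEAD and AP-1, 16 were nearest to 27 sites (2.33%), against 1.48% of the HRE class, 1.75% of the AP-1 class and 1.50% of all HIF-2α sites. CRIM1, NT5E and TGFB2 had 3 sites each, and the matricellular genes CCN1 and CCN2 and the transcription cofactor gene ANKRD1 had 1 each. Of 36 renal epithelial transcription factors, 5 were nearest to 7 sites (0.604%), among them PAX8 with 2 and OSR1 with 1, against 0.763% of all. The lists were chosen with earlier results known and these shares carry no test.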

How the data were processed

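ChIP-seq libraries made with antibodies to the 3 HIF subunits were analysed as peak lists, 1 per library and 50 in all. According to the submitters' processing notes the reads were handled with Trim Galore 0.3.3, BWA 0.7.5a-r405, SAMtools 0.1.19, Picard 1.106, bedtools 2.17.0 and MACS, on GRCh37 (hg19). The peak score deposited by the authors was taken to be the negative logarithm of the MACS p-value, scaled (the MACS version is not given in the sources used here). The lowest score was 50, or p 1e-05 on that scale, and scores were ranked only within a list. Of 131425 peaks, 131131 on chromosomes 1 to 22, X and Y were used. The lists carry no read depth, so precision rests on the number of sites and libraries.

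Overlaps of at least 1 bp, motifs, distances to 89204 protein-coding TSS of GENCODE 44 and exact permutation tests were computed in Python 3.11.15. The packages were numpy 2.4.6, scipy 1.17.1 and pysam 0.24.0. Overlap look-ups, the search for HRE cores and the sign-flip test were checked on simulated data. Class differences were tested over libraries by flipping signs, and knockouts by permuting 2 against 2 libraries. All tests were two-sided, and the 9 planned tests were adjusted by the Benjamini-Hochberg method. Sites named were the 5 called in the most libraries, the 5 with the best mean WT HIF-2α rank, the 3 best ranked without HIF-1β in HKC-8, the 3 lowest and the 2 on each side of the 100-bp limit. The members, lists, tests and rule for names were chosen with earlier results of these data known. The ST13 family, the bands of width, leaving out single libraries and the tests within experiments were added after the values were seen. Replicate numbers are shared between genotypes, but no label says that they pair libraries. Other alternatives were the overlap, the motif window, the score threshold, the site centre, the replicates used and the TSS set. Input samples and 294 peaks on other contigs were left out.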

Additional observations from a re-analysis of the deposited data

Results flagged for a closer look

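The difference between motif-less sites and the HRE class in the share called for HIF-2α was not the same in the 2 experiments. It averaged 1.24 percentage points in the 8 severity and duration libraries and −3.74 in the 2 HIF-1α KO libraries, a difference of −4.98 (exact permutation p 0.0222 over 10 libraries, two-sided, not adjusted). In the severity and duration libraries the motif-less share was the higher in 7 of 8, and in HIF-1α KO the lower in both. Without the 11 copies of ST13 the severity and duration difference was 0.72, higher in 5 of 8, and did not pass (exact permutation p 0.0781, adjusted p 0.176). Genotype, experiment and list length changed together, so they cannot be told apart, and the comparison was made after the values were seen.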

How the results depend on the processing

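The mean HIF-1β difference of motif-less sites was below 0 under all 15 alternatives against the HRE class and all 14 against the AP-1 class, and leaving out single libraries gave −3.36 to −2.39 and −2.46 to −1.95. It no longer passed with 1 replicate number alone, where 6 libraries are too few (−2.64 and −3.56 against the HRE class, −2.11 and −2.43 against the AP-1 class, adjusted p 0.141 each), nor against the AP-1 class with motifs within 50 bp (−1.24, lower in 4 of 12 libraries and higher in 8). The HIF-2α difference from the HRE class changed sign to −0.21 (50 bp), −0.93 (200 bp), −4.99 (whole site), −0.048 (score of at least 100), −0.48 (mean centre), −1.48 and −1.95 (WT replicate 2 or 1 alone), −0.90 (width bands) and −0.20 (without ST13 copies), was at most 0.83 over libraries left out, and passed at 1.24 in the severity and duration experiment alone (adjusted p 0.0469). That from the AP-1 class turned to 0.59 (50 bp) and 0.96 (severity and duration alone), and was −1.34 with WT replicate 1 alone. Over libraries left out it was −0.655 to 0.40, positive without either HIF-1α KO replicate (0.40 and 0.13). The rank difference was −0.93 with whole-site motifs and 2.79 to 10.8 over libraries left out. In RCC4 and HepG2 the difference passed at −2.56 (whole site), −2.52 (score of at least 100), −2.71 (upper 50% by score), −1.27 and −3.24 (WT replicate 2 or 1 alone) and −1.86 (width bands), and was −1.54 to −0.99 over libraries left out, passing without RCC4 HIF-2α replicate 2. The number of motif-less sites was 725 (200 bp), 265 (whole site), 653 (score of at least 100), 583 (upper 50%), and 1457 and 2538 (WT replicate 1 or 2 alone). The promoter share was 2.26% (whole site), 14.2% (TSS of all transcripts) and 13.1% (within 5 kb). The share with an HRE core at 101 to 500 bp was 48.1% (200 bp), 2.64% (whole site), 75.0% (score), 76.3% (upper 50%), and 59.2% and 61.4% (WT replicate 1 or 2 alone). A separate count, the share of sites overlapped by a HIF-1α KO HIF-2α peak with an HRE core within 100 bp of that peak's centre, was 27.5%. The causes were not tested, beyond the sites that each alternative adds or removes.

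Replicate 2 gave more HIF-1β calls than replicate 1 in WT (88.1% and 74.2%) and HIF-1α KO (63.9% and 44.5%) and fewer in HIF-2α KO (14.2% and 15.03%), and no label ties the numbers across genotypes, so the main tests carry no block. With the replicate block the knockout differences were −66.5, 4.74 and −26.9 (p 0.5 each in an exact permutation of 2 pairs, the smallest possible), and no call changed. Read depth is unknown and 2 libraries a group cannot reach the threshold of 0.05.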
